A study of Mus musculus with 36 samples.

Results

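The comparison set day 6 against day 5 of a mouse embryonic stem cell differentiation towards ventral posterior neural tissue, a 24-hour step within the days over which its astroglial genes rose. Its members were fixed by their labelled time: 3 libraries of day 6 against 3 libraries of day 5, 6 of the 36 libraries of the series. The whole series followed 1 differentiation at 12 time points with 3 biological replicates each, by sequencing polyadenylated RNA. The day 6 group and the day 5 group were both HM1 mouse embryonic stem cells carried through a neuromesodermal progenitor state, and by the labels they differed only in the day of sampling. Both had been given bFGF, then bFGF with the GSK3 inhibitor CHIR99021 and the TGF-beta and BMP receptor inhibitors SB431542 and DMH1. From day 0 to sampling both were kept in N2B27 with 100 nM retinoic acid (RA) and 500 nM SAG, an agonist of the Hedgehog receptor component Smoothened. No untreated culture of the same age was compared, so culture age and length of treatment cannot be told apart. HM1 is 1 line. The labels call the replicates biological without naming separate cultures, and each p-value therefore rests on a spread between libraries that may be partly technical.

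In the developing spinal cord, progenitors first make neurons and later switch to astrocytes and oligodendrocyte precursors. Sox9 and the nuclear factor I (NFI) proteins are known to act in that switch, Olig2 and Sox10 mark and drive the oligodendrocyte lineage, and glutamate transporters and Aldh1l1 mark astroglia. Progenitors that leave the neurogenic phase also lose proneural factors, and the Lin28 RNA-binding proteins decline as tissues mature.

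Library totals were 28787829 to 34380425 counts at day 6 and 30782295 to 31632706 counts at day 5. The share of counts from mitochondrially encoded genes was 1.37 to 1.68% at day 6 against 1.15 to 1.26% at day 5, so the groups did not overlap on it, and its part in the results was not tested. The labelled cell type is neural progenitor: Sox2 had 188, 190 and 211 CPM at day 6, against 223, 200 and 210 CPM at day 5, Nes had 672, 684 and 667 CPM at day 6, against 835, 854 and 841 CPM at day 5, and the embryonic globin genes Hba-x and Hbb-bh1 had no count on either day. Neuronal RNA was present as well, with the neuronal tubulin gene Tubb3 at 748, 794 and 843 CPM at day 6, against 1125, 1110 and 1135 CPM at day 5, so the cultures held neurons beside progenitors. CPM here is a gene's counts relative to the library total after scaling by the trimmed mean of M-values (TMM), with no correction for length. In such bulk RNA, fewer cells of a type and less RNA per cell cannot be told apart.

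Over the 24 hours, 9078 of 17990 tested genes changed, or 50.5%, at an adjusted p under 0.05 by edgeR's quasi-likelihood test with Benjamini-Hochberg adjustment. Of all tested genes, 24.1% were higher (4336 genes) and 26.4% lower (4742 genes) at day 6. These shares are the background for counts of list members called by edgeR's test for this step, with no fold threshold. Changes of at least 2-fold were fewer and ran mostly upwards, with 930 genes higher (5.17%) and 367 genes lower (2.04%). The split depended on the measure and test together: 47.8% of the calls were higher by edgeR on TMM-scaled counts. By limma on log2(TPM + 1) 64.7% were higher, and the median gene shifted by 0.067. On log2(TPM + 1) 5447 genes were higher and 2977 lower, which is the background for list counts on that measure. With median-of-ratios scaling in edgeR, 4318 genes were higher and 4745 lower. The median log2 fold change of all tested genes was 0.0006 on TMM-scaled counts, and the libraries of the days did not overlap in 54.3% of tested genes (26.5% higher and 27.7% lower at day 6).

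Nfia, Nfib, Nfix, Sox8, Sox10, Olig1 and Olig2 rose, while Sox9 did not pass the test. Of 25 gliogenic transcription factors, 13 were higher and 8 lower at day 6, with a median log2 fold change of 0.30. Nfia, an NFI factor required for the onset of gliogenesis in spinal cord, had 136, 148 and 144 CPM at day 6, against 66, 61 and 61.5 CPM at day 5 (log2 fold change 1.19 ± 0.05, adjusted p = 1.63e-18, where the value after ± is an approximate standard error). All day 6 libraries lay above all day 5 libraries, at about 2.28 times their level. Its partner Nfib had 73.8, 97.1 and 92.4 CPM at day 6, against 35.7, 34.8 and 35.5 CPM at day 5 (log2 fold change 1.31 ± 0.10, adjusted p = 4.18e-13). Nfix, the third NFI gene of the neural lineage, had 41.4, 45.5 and 49.8 CPM at day 6, against 14.4, 13.2 and 13 CPM at day 5 (log2 fold change 1.75 ± 0.11, adjusted p = 3.38e-15). The 3 day 6 libraries of both genes again lay apart from those of day 5, and Nfic, the remaining NFI gene, had a log2 fold change of 0.30 ± 0.06. Per length, Nfia averaged 83.6 ± 5.53 TPM at day 6 and 36.4 ± 2.08 TPM at day 5, Nfib 28.7 ± 3.63 TPM at day 6 and 10.4 ± 0.771 TPM at day 5 and Nfix 30.1 ± 5.92 TPM at day 6 and 8.58 ± 1.08 TPM at day 5 (SD, n = 3 each).

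Sox10 (chromosome 15, 79154908 to 79165240, GRCm38, minus strand), the SoxE factor of the oligodendrocyte and neural crest lineages, showed the largest rise of the genes with a mean of at least 10 CPM. It had 14.5, 19.8 and 26.1 CPM at day 6, against 1.22, 1.13 and 1.24 CPM at day 5 (log2 fold change 4.07 ± 0.23, adjusted p = 4.64e-16). Day 5 was uniformly low and the day 6 libraries spread, replicate 3 being the highest. Without that library the log2 fold change was 3.84. Sox8, another SoxE gene, had 21.8, 25.2 and 31.8 CPM at day 6, against 11.8, 11.5 and 11.8 CPM at day 5 (log2 fold change 1.17 ± 0.10, adjusted p = 3.1e-11). Sox9, the SoxE gene known to precede gliogenesis, had 171, 198 and 220 CPM at day 6, against 206, 183 and 188 CPM at day 5, so the groups overlapped (log2 fold change 0.03 ± 0.08, adjusted p = 0.782). Zbtb20, a zinc finger repressor of the astroglial lineage, had 56.9, 79.9 and 60.8 CPM at day 6, against 22, 25.5 and 23.6 CPM at day 5 (log2 fold change 1.47 ± 0.12, adjusted p = 1.39e-12). The Id genes, which block bHLH factors, did not move together, Id1 falling (log2 fold change −1.20 ± 0.14) and Id4 rising (0.61 ± 0.07).

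**Figure D1:**
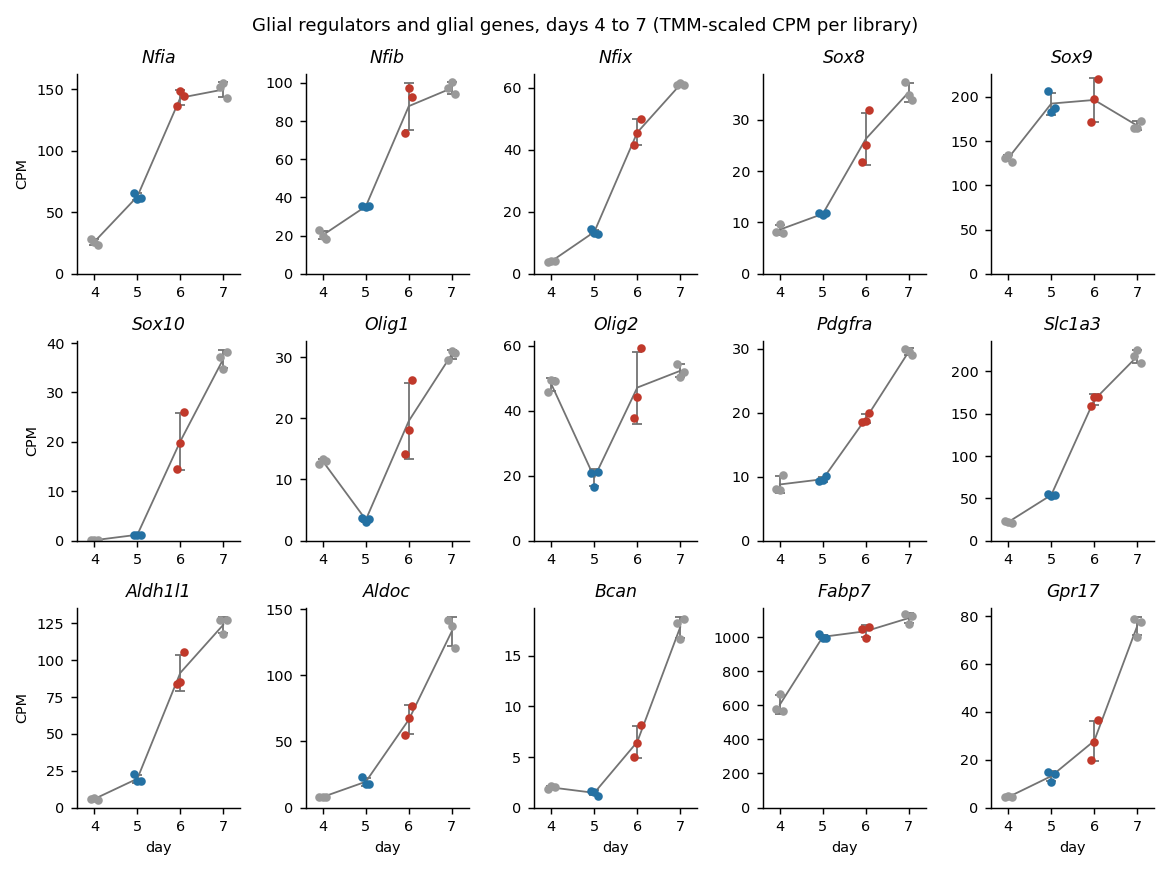
TMM-scaled CPM (y axis, linear, from 0) of 15 glial regulators and glial genes in each library of days 4 to 7 (x axis), with points for libraries (red day 6, blue day 5, grey days 4 and 7), a line through the means and bars for 1 SD. Sox10, Nfia, Nfix, Slc1a3 and Aldh1l1 separate day 6 from day 5, Olig1 and Olig2 dip at day 5, and the day 6 libraries of Sox9 and Fabp7 overlap those of day 5.

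The promoter windows of the rising glial genes were read for the NFI motif TTGGCA and the Sox motif ACAAAG on both strands. Windows run from 250 bases before to 50 bases after the annotated start and come from RefSeq on GRCm38.p6. Of 18 glial genes that were looked up, 13 had a window, with 18 windows in all, and the genes without one were Nfib, Sox10, Olig1, Sparcl1 and Vcam1. An NFI motif lay in 2 windows, of Sox8 and Aldoc, and a Sox motif in 1, of Nfix, and the 3 are shown with the motif in capitals because they are all the matches among these genes. Of all 32851 windows, 14.1% hold the NFI motif and 18.7% the Sox motif. The windows are Sox8, chr17:25570637-25570936 on the minus strand, Aldoc, chr11:78322823-78323122 on the plus strand, and Nfix, chr8:84772826-84773125 on the minus strand, each printed along the gene's own strand. The capitals in Sox8 are the NFI motif read on the opposite strand, 70 to 65 bases before the start.
Sox8: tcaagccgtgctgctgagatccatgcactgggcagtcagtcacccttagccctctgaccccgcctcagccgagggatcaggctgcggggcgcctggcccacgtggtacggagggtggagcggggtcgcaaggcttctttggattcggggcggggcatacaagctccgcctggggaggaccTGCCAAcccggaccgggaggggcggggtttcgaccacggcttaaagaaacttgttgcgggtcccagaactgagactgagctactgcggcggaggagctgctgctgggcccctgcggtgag
Aldoc: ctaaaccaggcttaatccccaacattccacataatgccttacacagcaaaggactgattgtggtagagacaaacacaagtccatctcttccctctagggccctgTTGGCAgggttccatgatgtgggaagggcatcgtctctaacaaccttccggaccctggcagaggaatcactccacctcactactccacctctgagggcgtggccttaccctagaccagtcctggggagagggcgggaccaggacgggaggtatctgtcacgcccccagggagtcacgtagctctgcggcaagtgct
Nfix: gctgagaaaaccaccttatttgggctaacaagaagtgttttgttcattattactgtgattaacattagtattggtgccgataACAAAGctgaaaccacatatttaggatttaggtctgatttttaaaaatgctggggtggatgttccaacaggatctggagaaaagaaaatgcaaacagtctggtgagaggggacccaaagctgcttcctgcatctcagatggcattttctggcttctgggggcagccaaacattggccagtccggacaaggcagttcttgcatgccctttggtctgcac
In Aldoc the NFI motif lies 146 to 141 bases before the start, and in Nfix the Sox motif lies 168 to 163 bases before the start of 1 of its 4 windows. No binding was measured, and a match describes letters only.

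Most of the listed astroglial genes rose. Of 39 tested members (4 of the 43 listed had too few counts), 30 were higher and 0 lower at day 6, with a median log2 fold change of 0.61. Their summed level was 7516 to 8060 TPM at day 6 and 5333 to 5623 TPM at day 5. Slc1a3 (chromosome 15, 8634124 to 8710764, GRCm38, minus strand), the glutamate transporter GLAST, had 159, 170 and 170 CPM at day 6, against 55.7, 52.6 and 53.9 CPM at day 5 (log2 fold change 1.62 ± 0.05, adjusted p = 2.15e-23). Aldh1l1, the folate enzyme used as a pan-astrocyte marker, had 84.1, 85 and 105 CPM at day 6, against 22.8, 17.7 and 18.2 CPM at day 5 (log2 fold change 2.22 ± 0.10, adjusted p = 1.68e-18). Aldoc, the brain aldolase of astrocytes, had 54.9, 67.9 and 76.4 CPM at day 6, against 23.1, 17.7 and 17.8 CPM at day 5 (log2 fold change 1.77 ± 0.10, adjusted p = 2.18e-15). In each of the 3 genes every day 6 library exceeded every day 5 library by more than the spread within either day.

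Bcan, the proteoglycan brevican, had 5.02, 6.36 and 8.13 CPM at day 6, against 1.65, 1.53 and 1.18 CPM at day 5 (log2 fold change 2.16 ± 0.16, adjusted p = 2.69e-13). Mlc1, a membrane protein of astrocyte endfeet, had 9.93, 10.5 and 10.1 CPM at day 6, against 2.54, 2.13 and 2.13 CPM at day 5 (log2 fold change 2.16 ± 0.14, adjusted p = 7.77e-15). Sparcl1, a secreted matricellular protein, had 129, 159 and 180 CPM at day 6, against 67.8, 56.2 and 59.1 CPM at day 5 (log2 fold change 1.36 ± 0.09, adjusted p = 4.73e-14). These 3 genes also had no overlap between the days. Ptprz1, a receptor phosphatase of radial glia, and Tnc, the matrix protein tenascin C, had log2 fold changes of 1.19 ± 0.08 and 0.51 ± 0.12, and Hopx, a marker of outer radial glia in human cortex, of 1.32 ± 0.15. Vcam1 rose by 1.82 ± 0.18 and the metallothionein Mt3 by 1.78 ± 0.14 on the log2 scale.

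Several established astroglial markers did not pass the test. Fabp7, the radial glial fatty acid binding protein, had 1049, 994 and 1058 CPM at day 6, against 1017, 995 and 992 CPM at day 5, and the groups overlapped (log2 fold change 0.05 ± 0.05, adjusted p = 0.494). Slc1a2, the glutamate transporter GLT-1, had 79.4, 102 and 99 CPM at day 6, against 92.3, 99.3 and 93.7 CPM at day 5, and Gja1, the gap junction protein connexin 43, had 42.4, 34.4 and 34 CPM at day 6, against 35.2, 38.6 and 38.1 CPM at day 5, with adjusted p = 0.779 and adjusted p = 0.874 by the same test. Gfap, the intermediate filament of mature astrocytes, had 5 counts in all 3 day 6 libraries together and 6 counts in those of day 5, a level at which no difference was detectable. S100b had 28 counts at day 6 and 4 counts at day 5, and passed the test (log2 fold change 2.67 ± 0.65, adjusted p = 0.00149). Aqp4, the astrocyte water channel, was higher at day 6, with 3.05, 2.35 and 3.26 CPM at day 6, against 1.77, 1.38 and 1.02 CPM at day 5 (log2 fold change 1.05 ± 0.24, adjusted p = 0.000497).

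Listed genes of the oligodendrocyte lineage were more often higher than lower. Of 24 tested members of the oligodendrocyte list, 12 were higher and 3 lower at day 6, with a median log2 fold change of 0.44. Olig2 (chromosome 16, 91225457 to 91228677, GRCm38, plus strand), the bHLH factor of motor neuron and oligodendrocyte progenitors, had 37.8, 44.3 and 59.4 CPM at day 6, against 20.8, 16.4 and 21.1 CPM at day 5 (log2 fold change 1.28 ± 0.12, adjusted p = 7.12e-11). Its neighbour Olig1 had 14.2, 18.1 and 26.3 CPM at day 6, against 3.67, 3 and 3.6 CPM at day 5 (log2 fold change 2.52 ± 0.15, adjusted p = 4.24e-15). Both genes had their highest value in day 6 replicate 3, as Sox10 did, and without that library their log2 fold changes were 1.08 and 2.24. The groups did not overlap for either gene.

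Pdgfra, the receptor of oligodendrocyte precursors, had 18.6, 18.7 and 19.9 CPM at day 6, against 9.32, 9.44 and 10.1 CPM at day 5 (log2 fold change 0.99 ± 0.13, adjusted p = 1.42e-07). Gpr17, a receptor of committed precursors, had 20, 27.3 and 36.6 CPM at day 6, against 14.8, 10.7 and 13.9 CPM at day 5 (log2 fold change 1.09 ± 0.15, adjusted p = 1.98e-07), and Cnp, an early myelin-lineage enzyme, had a log2 fold change of 0.70 ± 0.08. The day 6 libraries of Pdgfra and Gpr17 lay above those of day 5. Zfp488, a corepressor of the lineage, had 65 counts at day 6 and 2 counts at day 5, a scaled ratio of 32.25 with a 95% counting interval of 8.577 to 272.0. Cspg4, the NG2 proteoglycan, had 0.623, 0.828 and 0.581 CPM at day 6, against 1.07, 0.563 and 0.605 CPM at day 5 (log2 fold change −0.15 ± 0.32, adjusted p = 0.729). Mbp, myelin basic protein, had 33.7, 37.7 and 39.6 CPM at day 6, against 35.9, 36.3 and 36.6 CPM at day 5, with overlapping groups (log2 fold change 0.03 ± 0.05, adjusted p = 0.669). It passed by limma on log2(TPM + 1), with a log2 fold change of 0.22 and adjusted p = 0.00752, so its call depended on the measure and test used. Nkx6-2, a homeobox factor of the lineage, fell (log2 fold change −1.33 ± 0.15).

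Sox10 is also a neural crest gene. Of 12 tested neural crest and Schwann genes, a list that holds Sox10 itself, 3 were higher, Sox10 among them, and 2 lower. They summed to 148 to 162 TPM at day 6 and 180 to 193 TPM at day 5, a sum lower at day 6. The crest factor Tfap2a had 0.131, 0.265 and 0.194 CPM at day 6, against 0.0916, 0.188 and 0.159 CPM at day 5 and did not pass the test (adjusted p = 0.575). The part of crest RNA in the Sox10 result was not tested.

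Most neurogenic genes fell, while the core progenitor factor Sox2 did not pass the test. Of 22 tested genes of the neurogenic transition, 0 were higher and 17 lower at day 6, with a median log2 fold change of −0.51; on log2(TPM + 1) 15 were lower and 2 higher. Nhlh2, a bHLH factor of new neurons, had 31.4, 32 and 36.3 CPM at day 6, against 98.7, 82 and 84.4 CPM at day 5 (log2 fold change −1.41 ± 0.07, adjusted p = 8.29e-18). Dll3, a Notch ligand of cells entering differentiation, had 18.5, 20 and 20.5 CPM at day 6, against 58.8, 44.2 and 52.3 CPM at day 5 (log2 fold change −1.39 ± 0.10, adjusted p = 3.57e-13). Both had all day 6 libraries below all day 5 libraries, whereas Neurog2, a proneural factor, overlapped, with 2.85, 3.91 and 4.87 CPM at day 6, against 4.34, 3.81 and 4.62 CPM at day 5 (log2 fold change −0.12 ± 0.18, adjusted p = 0.623).

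Of 20 neural progenitor genes, 3 were higher and 11 lower, with a median log2 fold change of −0.21, and 8 were lower on log2(TPM + 1). They summed to 4586 to 4749 TPM at day 6 and 4381 to 4566 TPM at day 5, a sum higher at day 6. Sox3, the SoxB1 partner of Sox2, had 17.5, 16.4 and 19.6 CPM at day 6, against 65.2, 48.5 and 60.7 CPM at day 5 (log2 fold change −1.70 ± 0.09, adjusted p = 3.97e-17). Hes5, a Notch effector that maintains progenitors, had 12.5, 14.4 and 13.1 CPM at day 6, against 26.8, 20 and 23.4 CPM at day 5 (log2 fold change −0.81 ± 0.11, adjusted p = 2.27e-07). Hes1, its relative, had 67, 58.5 and 57.3 CPM at day 6, against 66.5, 60.2 and 61.7 CPM at day 5, with overlapping groups (log2 fold change −0.04 ± 0.05, adjusted p = 0.518). Prom1, a membrane glycoprotein of progenitors, was higher, with a log2 fold change of 0.73 ± 0.05.

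Most of the listed motor neuron genes fell. Of 23 motor neuron genes, 14 were lower and 8 higher, with a median log2 fold change of −0.79. Their sum was 677 to 718 TPM at day 6 and 720 to 777 TPM at day 5. Of 11 genes of visceral and hindbrain motor neurons 6 were lower and 3 higher, with a median of −1.05. The sum of that list overlapped between the days, at 370 to 423 TPM at day 6 and 372 to 396 TPM at day 5. Isl1 (chromosome 13, 116298281 to 116309689, GRCm38, minus strand), the LIM factor of motor neurons, had 4.49, 4.31 and 5.83 CPM at day 6, against 17.2, 19.6 and 18.4 CPM at day 5 (log2 fold change −1.90 ± 0.12, adjusted p = 7.89e-15). Lhx4, a LIM factor of early motor neurons, had 3.18, 3.61 and 3.23 CPM at day 6, against 17.7, 19.4 and 21 CPM at day 5 (log2 fold change −2.54 ± 0.12, adjusted p = 7.98e-18). Mnx1, the homeobox factor Hb9, had 3.67, 4.14 and 4.12 CPM at day 6, against 12.7, 13.7 and 14.3 CPM at day 5 (log2 fold change −1.76 ± 0.09, adjusted p = 1.09e-16). In all 3 genes the day 6 libraries were tightly grouped and below the lowest day 5 library.

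Slc18a3, the vesicular acetylcholine transporter, had 11.2, 10.5 and 9.48 CPM at day 6, against 43.7, 52.8 and 54.2 CPM at day 5 (log2 fold change −2.28 ± 0.08, adjusted p = 9.85e-22), and Chat, choline acetyltransferase, had 1.77, 2.29 and 2.02 CPM at day 6, against 6.78, 6.57 and 6.88 CPM at day 5 (log2 fold change −1.73 ± 0.13, adjusted p = 6.1e-13). In both genes the day 6 libraries lay below the day 5 libraries. The members of the motor neuron list that rose included the neurotrophin receptor Ntrk3 (log2 fold change 1.32 ± 0.07), the GDNF family receptor Gfra2 (0.99 ± 0.11) and the forkhead factor Foxp1 (0.63 ± 0.04).

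Of 24 pan-neuronal genes, 13 were lower and 5 higher (median log2 fold change −0.20). On log2(TPM + 1) 7 were lower, and fewer of all tested genes were lower as well (2977 against 4742). Tubb3, the neuronal beta-tubulin, fell, as its values above show (log2 fold change −0.50 ± 0.06, adjusted p = 6.82e-08). Nefl, the light neurofilament chain, had 565, 624 and 694 CPM at day 6, against 964, 1150 and 1156 CPM at day 5 (log2 fold change −0.80 ± 0.07, adjusted p = 1.76e-11). Syt1, the calcium sensor of synaptic vesicles, had 126, 130 and 128 CPM at day 6, against 62.7, 75.1 and 67.8 CPM at day 5 (log2 fold change 0.90 ± 0.06, adjusted p = 2.86e-14). Nefl was lower and Syt1 higher in every day 6 library than in any day 5 library.

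Of 33 tested synapse and neurotransmission genes, 24 were higher and 1 lower, with a median log2 fold change of 0.67. Gria1, an AMPA receptor subunit, had 32.8, 38 and 34.6 CPM at day 6, against 10.1, 10.3 and 8.44 CPM at day 5 (log2 fold change 1.87 ± 0.12, adjusted p = 7.32e-15). Camk2a, a kinase of excitatory synapses, had 84.7, 101 and 93.3 CPM at day 6, against 45.1, 46.4 and 41.8 CPM at day 5 (log2 fold change 1.06 ± 0.07, adjusted p = 1.56e-14). Gabra2, a GABA-A receptor subunit, had a log2 fold change of 1.91 ± 0.17, and the vesicular glutamate transporter gene Slc17a6 one of 0.83 ± 0.14. The 1 member that fell was Slc17a7, another vesicular glutamate transporter, with 1.74, 1.23 and 1.35 CPM at day 6, against 3.85, 2.6 and 2.61 CPM at day 5 (log2 fold change −1.07 ± 0.22, adjusted p = 0.000153).

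Most late temporal neuron factors rose and the early Onecut factors fell. The list of 17 late temporal neuron factors also holds the early factor Onecut2. Of these 17, 13 were higher, the NFI genes among them. The 4 that were lower included Onecut2, which had the lowest log2 fold change of the list. Neurod2, a bHLH factor of maturing neurons, had 5.08, 5.83 and 8.49 CPM at day 6, against 0.458, 0.313 and 0.191 CPM at day 5 (log2 fold change 4.32 ± 0.29, adjusted p = 5.14e-14). Neurod6, its relative, had 113 counts at day 6 and 0 counts at day 5, which is at least 12.5-fold higher against a floor of 3 counts per day 5 library, and its call was lost in DESeq2 (adjusted p = 0.401). Onecut2, a factor of early-born neurons, had 16, 23.6 and 18 CPM at day 6, against 47.2, 51.1 and 51.4 CPM at day 5 (log2 fold change −1.38 ± 0.11, adjusted p = 3.88e-12), and Onecut1 and Onecut3 had log2 fold changes of −1.18 ± 0.09 and −0.80 ± 0.17.

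**Figure D2:**
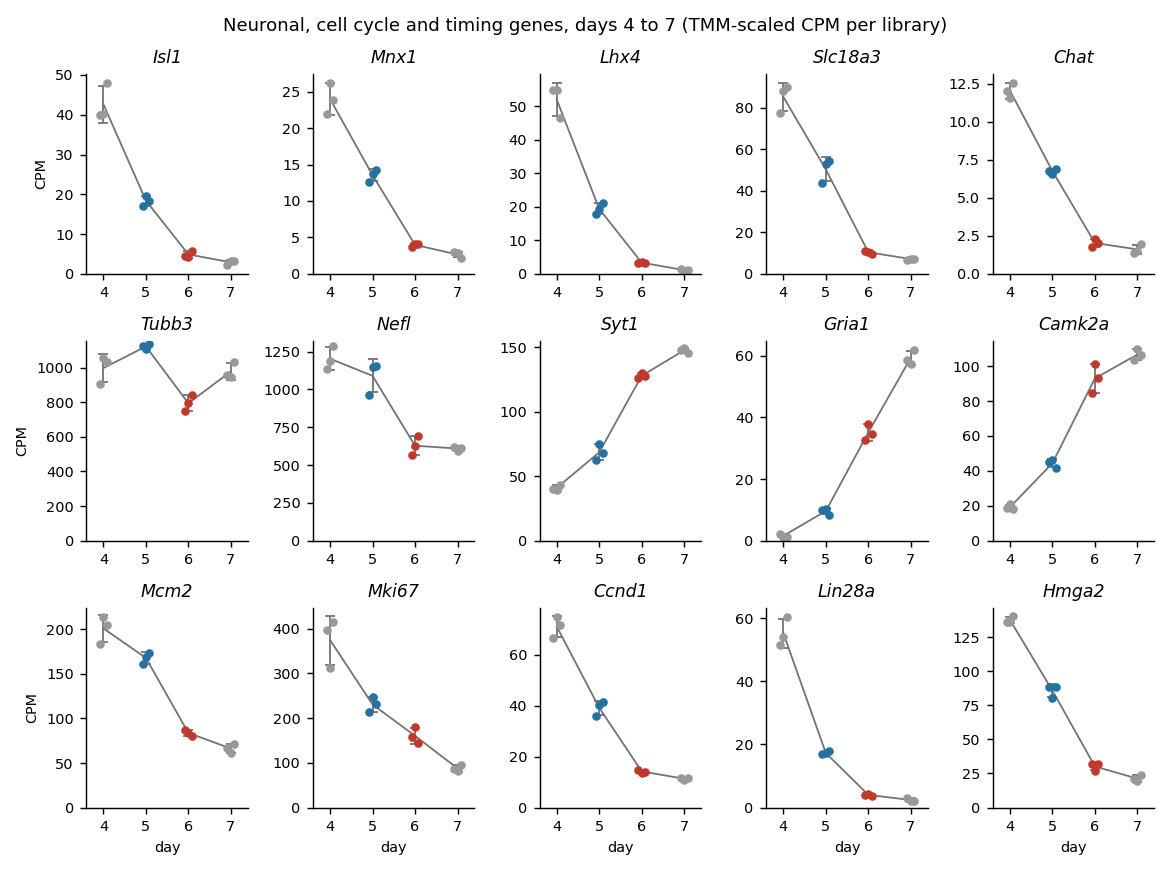
TMM-scaled CPM (y axis, linear, from 0) of 15 neuronal, cell cycle and timing genes in each library of days 4 to 7 (x axis), with points for libraries (red day 6, blue day 5, grey days 4 and 7), a line through the means and bars for 1 SD. Isl1, Lhx4, Slc18a3, Mcm2, Ccnd1 and Lin28a are lower in all day 6 libraries than in all day 5 libraries, and Syt1, Gria1 and Camk2a are higher.

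Every replication and mitosis gene on the lists fell. Of 30 DNA replication genes, 30 were lower at day 6 (median log2 fold change −0.95), and of 30 mitosis genes 30 were lower (median −0.83), 29 of them on log2(TPM + 1). Mcm2, a subunit of the replicative helicase, had 87.2, 83.4 and 80.7 CPM at day 6, against 161, 169 and 174 CPM at day 5 (log2 fold change −1.00 ± 0.05, adjusted p = 2.97e-17). Top2a, topoisomerase II of dividing cells, had 228, 216 and 219 CPM at day 6, against 401, 440 and 450 CPM at day 5 (log2 fold change −0.96 ± 0.06, adjusted p = 1.13e-14). Mki67, the proliferation antigen Ki-67, fell, with 158, 179 and 144 CPM at day 6, against 214, 246 and 231 CPM at day 5 (log2 fold change −0.52 ± 0.08, adjusted p = 3.37e-06). The day 6 libraries lay below the day 5 libraries in all 3 genes.

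Of 15 G1 cyclins and Cdk inhibitors, 12 were lower and 0 higher, and 8 were lower on log2(TPM + 1). Ccnd1, cyclin D1, had 14.8, 13.7 and 14.1 CPM at day 6, against 36.1, 40.2 and 41.4 CPM at day 5 (log2 fold change −1.46 ± 0.08, adjusted p = 6.62e-16), and Ccnd2 had a log2 fold change of −0.71 ± 0.07. The inhibitor gene Cdkn1c (p57) fell as well, with a log2 fold change of −0.83 ± 0.08.

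The Lin28 axis and the oncofetal RNA binders fell together, 11 of 12 members being lower and 0 higher, with a median log2 fold change of −0.99. Lin28a, which blocks let-7 maturation, had 3.97, 4.37 and 3.7 CPM at day 6, against 16.9, 17.2 and 17.8 CPM at day 5 (log2 fold change −2.11 ± 0.08, adjusted p = 1.89e-20). Lin28b had 9.15, 10.9 and 9.76 CPM at day 6, against 23.6, 26.5 and 25 CPM at day 5 (log2 fold change −1.34 ± 0.08, adjusted p = 2.45e-15). Hmga2, a chromatin protein and let-7 target of young neural stem cells, had 31.8, 26.7 and 31.9 CPM at day 6, against 88.5, 80.2 and 88.7 CPM at day 5 (log2 fold change −1.51 ± 0.07, adjusted p = 7.84e-19), and Igf2bp1, an oncofetal mRNA-binding protein, had a log2 fold change of −1.13 ± 0.04. No day 6 library reached the level of any day 5 library in the 3 genes with values given.

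Floor plate genes were mostly higher and Hedgehog targets lower. Of 17 tested floor plate genes, 12 were higher and 2 lower, with a median log2 fold change of 0.42. Shh, the ligand of the floor plate, had 607, 523 and 519 CPM at day 6, against 467, 436 and 433 CPM at day 5 (log2 fold change 0.30 ± 0.08, adjusted p = 0.0027). Foxa2, its regulator, had 173, 143 and 133 CPM at day 6, against 122, 121 and 116 CPM at day 5 (log2 fold change 0.32 ± 0.09, adjusted p = 0.00252), a call lost without day 6 replicate 1 (log2 fold change 0.21, adjusted p = 0.0522). Ntn1, a guidance cue of the floor plate, had a log2 fold change of 0.62 ± 0.06. Of 10 Hedgehog targets, 9 were lower and 0 higher (6 lower on log2(TPM + 1)), among them the receptor gene Ptch1 with 339, 361 and 379 CPM at day 6, against 438, 409 and 429 CPM at day 5 (log2 fold change −0.24 ± 0.04, adjusted p = 1.79e-05) and the inhibitor Hhip (log2 fold change −0.74 ± 0.09), while SAG was present on both days.

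Of 10 genes of the p3 domain and V3 interneurons, 5 were higher and 4 lower. Nkx2-2, the p3 factor, had 151, 168 and 181 CPM at day 6, against 185, 160 and 170 CPM at day 5, and its groups overlapped (log2 fold change −0.05 ± 0.06, adjusted p = 0.517). Sim1, a V3 factor, had 97.1, 107 and 135 CPM at day 6, against 96.2, 88.9 and 90.4 CPM at day 5 (log2 fold change 0.30 ± 0.09, adjusted p = 0.00551), a call lost without day 6 replicate 3 (log2 fold change 0.15, adjusted p = 0.153). Neurog3, a proneural gene of the same lineage, fell, with a log2 fold change of −0.65 ± 0.10, a call lost by limma on log2(TPM + 0.1) (adjusted p = 0.121), and so did Nkx2-9, with one of −2.51 ± 0.23.

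Retinoid genes were mostly lower, and RA was in the medium on both days. Of 17 tested genes, 12 were lower and 2 higher, with a median log2 fold change of −0.42. Crabp2, a cytosolic RA-binding protein, had 20.3, 22.8 and 22.3 CPM at day 6, against 86.9, 76.8 and 81.4 CPM at day 5 (log2 fold change −1.91 ± 0.06, adjusted p = 6.19e-22). Aldh1a2, an RA-synthesising enzyme that the motor neuron list holds, had 11.8, 11.5 and 9.79 CPM at day 6, against 36.2, 40.9 and 40.7 CPM at day 5 (log2 fold change −1.83 ± 0.10, adjusted p = 9.31e-16). Dhrs3, a retinaldehyde reductase, and Tgm2, a transglutaminase induced by RA, were the members that rose (log2 fold changes 0.50 ± 0.08 and 0.68 ± 0.08). Of 12 Hox genes of paralogues 1 to 4, which mark hindbrain and upper cervical levels, 6 were lower and 2 higher, and of 11 of paralogues 5 to 8, 6 were higher and 1 lower, with Hoxc8 at 15.2, 14 and 20.7 CPM at day 6, against 10.8, 5.97 and 8.98 CPM at day 5 (log2 fold change 0.96 ± 0.18, adjusted p = 3.64e-05). Of 7 tested Hox genes of paralogues 9 to 13, 0 passed edgeR's test in either direction, with 0 at an unadjusted p under 0.05 and 0 called by DESeq2.

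Of 24 Notch pathway genes, 10 were lower and 3 higher. On log2(TPM + 1), where the calls over all genes were more often higher, 7 were lower and 7 higher. Among 19 genes of gp130 and JAK-STAT signalling, which promotes astrocyte differentiation, 6 were higher and 2 lower, with the receptor gene Il6st at 204, 205 and 204 CPM at day 6, against 136, 144 and 139 CPM at day 5 (log2 fold change 0.55 ± 0.04, adjusted p = 2.38e-14) and Stat3 at a log2 fold change of 0.36 ± 0.05. Of 22 BMP pathway and Id genes 7 were higher and 6 lower, of 15 TGF-beta genes 5 were higher and 4 lower, of 17 FGF-ERK feedback genes 1 was higher and 7 lower, and of 17 Wnt feedback genes 6 were higher and 2 lower. The counts for BMP and TGF-beta genes were near the background shares. For gp130 genes the count higher was near its background share and the count lower was below it.

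Sterol synthesis genes fell, and glycolysis and hypoxia genes were mostly higher. Of 24 sterol and fatty acid synthesis genes, 23 were lower and 0 higher (median log2 fold change −0.65), with Hmgcs1, a mevalonate pathway enzyme, at 985, 1109 and 1182 CPM at day 6, against 1492, 1604 and 1587 CPM at day 5 (log2 fold change −0.52 ± 0.06, adjusted p = 3.43e-08). Of 23 tested glycolysis and hypoxia genes, 16 were higher and 2 lower, with a median log2 fold change of 0.23. Their sums overlapped, at 7708 to 8787 TPM at day 6 and 7243 to 8353 TPM at day 5. Into day 5, 22 members had been higher and 0 lower (median 1.04). The largest rise of the list was that of the phosphofructokinase gene Pfkp, with 114, 178 and 135 CPM at day 6, against 49.8, 55.3 and 40.9 CPM at day 5 (log2 fold change 1.55 ± 0.14, adjusted p = 5.37e-11). Of 22 genes of the integrated stress response 10 were lower and 1 higher, and of 20 p53 target genes 11 were lower and 3 higher (7 lower and 5 higher on log2(TPM + 1)).

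Of 14 tested genes of complement, MHC and interferon response 3 were higher and 4 lower. Matrix, cilium and clock genes were mostly higher. Of 25 extracellular matrix genes, 19 were higher and 1 lower, with the periostin gene Postn at 29.5, 25.7 and 22.2 CPM at day 6, against 6.87, 8.19 and 6.91 CPM at day 5 (log2 fold change 1.81 ± 0.14, adjusted p = 1.24e-12). Of 15 tested genes of motile cilia and ependyma, 9 were higher and 0 lower, and their regulator Foxj1 had 60.8, 53.1 and 45.8 CPM at day 6, against 31.5, 33.7 and 29.7 CPM at day 5 (log2 fold change 0.75 ± 0.10, adjusted p = 1.13e-07). The axonemal dynein gene Dnah9 had a log2 fold change of 1.80 ± 0.13. Of 18 circadian clock genes, 13 were higher and 1 lower, with the output factor Hlf at 10.9, 11.8 and 12.2 CPM at day 6, against 3.6, 4.13 and 3.92 CPM at day 5 (log2 fold change 1.59 ± 0.13, adjusted p = 3.66e-12) and the repressor Nr1d1 at a log2 fold change of 1.28 ± 0.13. The time of day of sampling is not given in the sources used here.

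**Figure D3:**
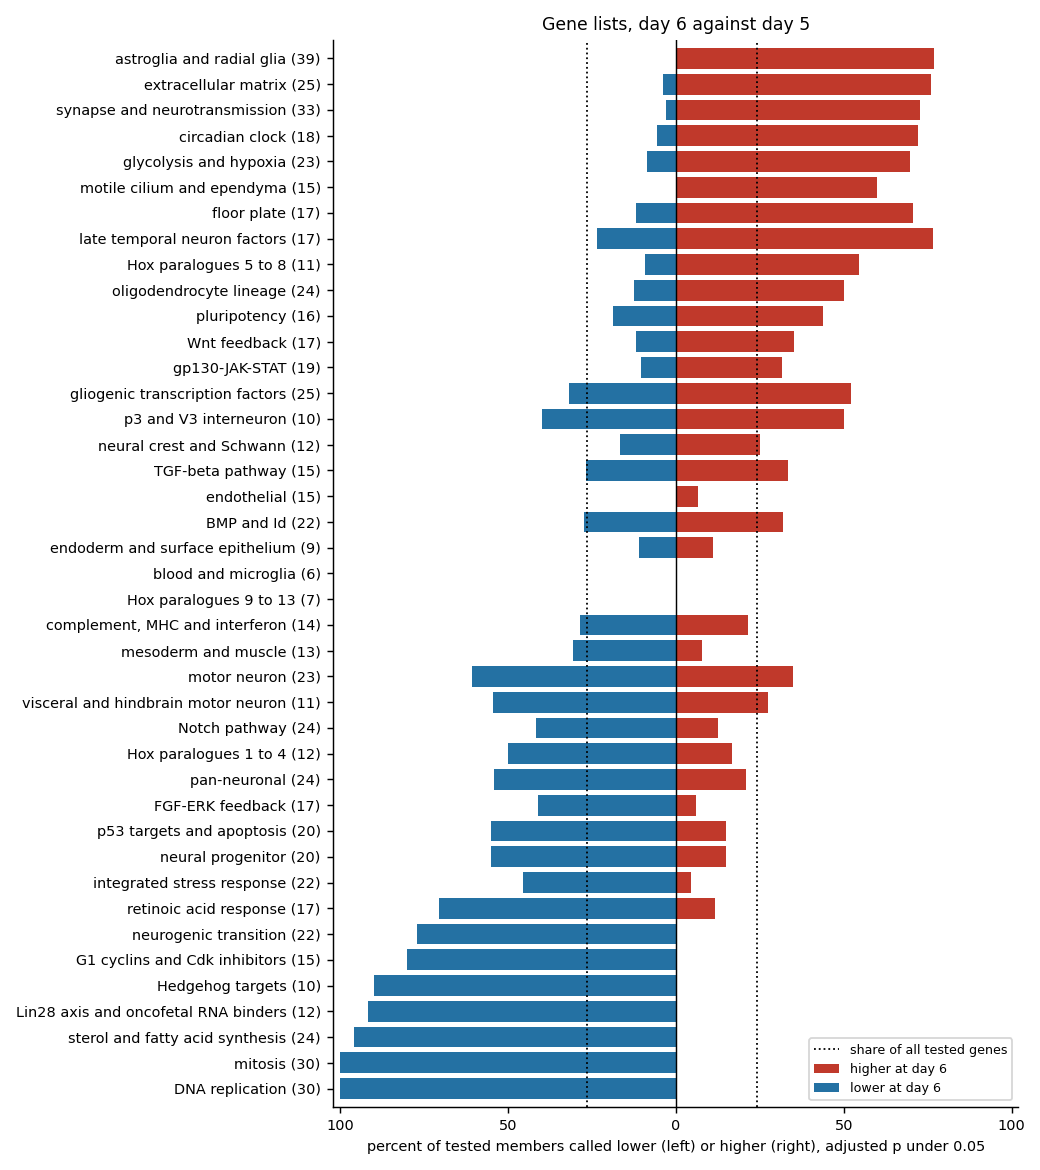
Share of tested members (x axis, percent) of 41 gene lists (y axis, number tested in brackets) called higher at day 6 (red, to the right) or lower at day 6 (blue, to the left), by edgeR's quasi-likelihood test at an adjusted p under 0.05. Dotted lines mark the shares of all tested genes, 24.1% higher and 26.4% lower, and the DNA replication and mitosis lists reach all 30 members lower.

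Among genes with a mean of at least 10 CPM on the higher day and no overlap, the rises after Sox10 were led by Itgb4 and Cbs. Itgb4, integrin beta 4, had 8.46, 11 and 11.9 CPM at day 6, against 0.581, 0.688 and 0.605 CPM at day 5 (log2 fold change 4.06 ± 0.21, adjusted p = 4.06e-17). Cbs, cystathionine beta-synthase of the transsulfuration pathway, had 17.5, 21.4 and 26.7 CPM at day 6, against 1.99, 1.25 and 1.59 CPM at day 5 (log2 fold change 3.76 ± 0.13, adjusted p = 1.54e-21). Every day 5 library of both genes was under 2 CPM. Sntb1, a syntrophin, the neuronal chromatin remodeller gene Chd5 and Dpp10, an auxiliary subunit of potassium channels, had log2 fold changes of 3.17 ± 0.14, 3.04 ± 0.17 and 2.98 ± 0.14. The extracellular protein genes Fndc1, Frem2 and Nbl1, the last a BMP antagonist, had log2 fold changes of 2.87 ± 0.18, 2.55 ± 0.14 and 2.52 ± 0.09. Then came Cp, the copper ferroxidase ceruloplasmin (2.51 ± 0.20), the neuronal membrane protein gene Sez6 (2.46 ± 0.08), the oestrogen receptor gene Gper1 (2.42 ± 0.20) and Gpr37, a receptor of oligodendrocytes (2.25 ± 0.08).

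Among genes with a mean of at least 10 CPM on the higher day and no overlap, the largest fall was that of Ddc, aromatic amino acid decarboxylase of monoamine synthesis, which had 3.97, 4.37 and 4.34 CPM at day 6, against 58.5, 44.9 and 55.2 CPM at day 5 (log2 fold change −3.64 ± 0.12, adjusted p = 8.57e-22). Every day 6 library was at least 10-fold below every day 5 library. Chrna3, a nicotinic receptor subunit of autonomic neurons, and Arhgap36, an activator of Gli proteins, had log2 fold changes of −2.11 ± 0.12 and −2.12 ± 0.07. Igdcc3, Pappa, a protease of IGF-binding proteins, and Ptges, a prostaglandin E synthase, had log2 fold changes of −2.25 ± 0.06, −2.09 ± 0.12 and −2.05 ± 0.13. Other leading falls were Fndc3c1 (−1.98 ± 0.09) and Shisa3 (−1.92 ± 0.10), beside Lhx4, Slc18a3, Lin28a, Crabp2, Isl1 and Aldh1a2 described above.

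Of 15 endothelial genes 1 was higher and 0 lower, the VEGF receptor gene Kdr, with 33.9, 35.1 and 33.2 CPM at day 6, against 16.6, 19.6 and 21.1 CPM at day 5 (log2 fold change 0.83 ± 0.15, adjusted p = 1.98e-05), while the junction marker Pecam1 had 22.6, 21.3 and 22 CPM at day 6, against 18.7, 22.9 and 23 CPM at day 5 and did not pass (adjusted p = 0.91). The endothelial list summed to 110 to 124 TPM at day 6 and 93.4 to 111 TPM at day 5. Of 6 tested blood and microglia genes 0 passed edgeR's test in either direction, with 2 at an unadjusted p under 0.05 and 0 called by DESeq2, and the list summed to 2.59 to 2.75 TPM at day 6 and 2.48 to 3.07 TPM at day 5. Of 13 mesoderm and muscle genes 1 was higher and 4 lower, and their sum was 106 to 158 TPM at day 6 and 131 to 182 TPM at day 5. Of 9 endoderm and epithelial genes 1 was higher and 1 lower, with a sum of 26.5 to 34.1 TPM at day 6 and 24.9 to 38.4 TPM at day 5. The ranges of these 4 sums overlapped between the days.

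Set beside its neighbours, the step into day 6 held more calls than either. Day 5 against day 4 gave 6832 calls (38%, with 21.2% of genes higher and 16.8% lower). Day 7 against day 6 gave 3644 calls (20.3%, with 11.3% higher and 8.95% lower). Changes of at least 2-fold numbered 938 (5.21%) into day 5, 1297 (7.21%) into day 6 and 296 (1.65%) into day 7. The steps share the libraries of the day between them, so the differences between steps were tested as contrasts of their own. The change from day 5 to day 6 differed from that of the step before in 5029 genes (28%), 1782 (9.91%) with a positive difference and 3247 (18%) with a negative one. It differed from that of the step after in 4474 genes (24.9%), 2026 (11.3%) with a positive difference and 2448 (13.6%) with a negative one.

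Olig1 and Olig2 turned at day 5. Olig1 averaged 13 ± 0.359 CPM at day 4, 3.42 ± 0.365 at day 5, 19.6 ± 6.15 at day 6 and 30.4 ± 0.782 at day 7 (SD, n = 3 each). Its change into day 6 exceeded that into day 5 by 4.44 ± 0.29 (adjusted p = 1.56e-12) on the log2 scale. Olig2 averaged 48.2 ± 2, 19.4 ± 2.63, 47.2 ± 11.1 and 52.3 ± 2.03 CPM on the same days, and its difference was 2.59 ± 0.21 (adjusted p = 1.41e-10). Both genes were lower at day 5 than on either neighbouring day. Bcan, which was lower at day 5 than at day 4, had a difference of 2.61 ± 0.30 (adjusted p = 1.19e-07).

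Most of the listed astroglial genes had also risen into day 5. Of the 39 tested members, 27 were higher and 1 lower at day 5 than at day 4 (median log2 fold change 0.80), 30 were higher and 0 lower into day 6 (0.61), and 18 were higher and 2 lower into day 7 (0.30). The change into day 6 was above that into day 5 in 8 members and below it in 7, and it was above that into day 7 in 22 and below it in 1, by the tests of the difference. The oligodendrocyte list differed. Of its 24 tested members, 12 were higher and 3 lower into day 6 (median log2 fold change 0.44). Into day 7, 17 were higher and 0 lower (0.85). By the same test, their change into day 6 was above that into day 7 in 4 members and below it in 7.

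For Nfia, Nfib and Nfix the step into day 6 was larger than the one after. Nfia had log2 fold changes of 1.27 into day 5, 1.19 into day 6 and 0.07 into day 7, and its step into day 6 exceeded the next by 1.12 ± 0.09 (adjusted p = 4.45e-11). It differed from the step before by −0.08 ± 0.10 (adjusted p = 0.562), which did not pass the test. Nfix had 1.74, 1.75 and 0.42 over the same steps, and its difference from the next step was 1.33 ± 0.17 (adjusted p = 5.51e-07). Nfib differed from the step before by 0.52 ± 0.17 (adjusted p = 0.0256) and from the next by 1.17 ± 0.16 (adjusted p = 1.73e-06). Slc1a3 and Aldh1l1 likewise exceeded their next step, by 1.23 ± 0.08 (adjusted p = 1.54e-13) and 1.78 ± 0.16 (adjusted p = 4.36e-10). Sox10 exceeded its next step by 3.20 ± 0.33 (adjusted p = 7.78e-09), while its step from day 4 to day 5, from an average of 0.0971 ± 0.0552 CPM, differed from that into day 6 by 0.50 ± 0.90 (adjusted p = 0.734).

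Of the genes whose change differed most from that of a neighbouring step, Cbs, Itgb4 and Frem2 rose into day 6. Cbs had log2 fold changes of 0.41, 3.76 and 0.27 into days 5, 6 and 7, Itgb4 of 0.18, 4.06 and 0.89, and Frem2 of −0.50, 2.55 and −0.16. Ddc had −0.19, −3.64 and −0.31 over the same steps, so its drop fell in the 24 hours before day 6. Mab21l2, Elfn1, Epha8, Klhl35 and Sv2c, which had risen into day 5 by 2.71, 1.86, 2.01, 1.98 and 1.34, had log2 fold changes of −1.27, −0.76, −0.42, −0.55 and −0.82 into day 6. By limma on log2(TPM + 0.1) the day 6 calls of Epha8 and Klhl35 were lost (adjusted p = 0.212 and adjusted p = 0.539), as was that of Tnr (adjusted p = 0.188). Kcnq1ot1, a noncoding RNA, had 28.2, 59.3 and 27.6 CPM at day 6, against 19.4, 20 and 17.6 CPM at day 5, with a log2 fold change of 1.01 ± 0.24; without the high day 6 replicate 2 it was 0.55. Tbx20, Ptges, Tmem132d and Tnr were, with Ddc, among the genes with the most negative differences from the next step, of −1.97, −1.91, −1.80 and −1.94.

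**Figure D4:**
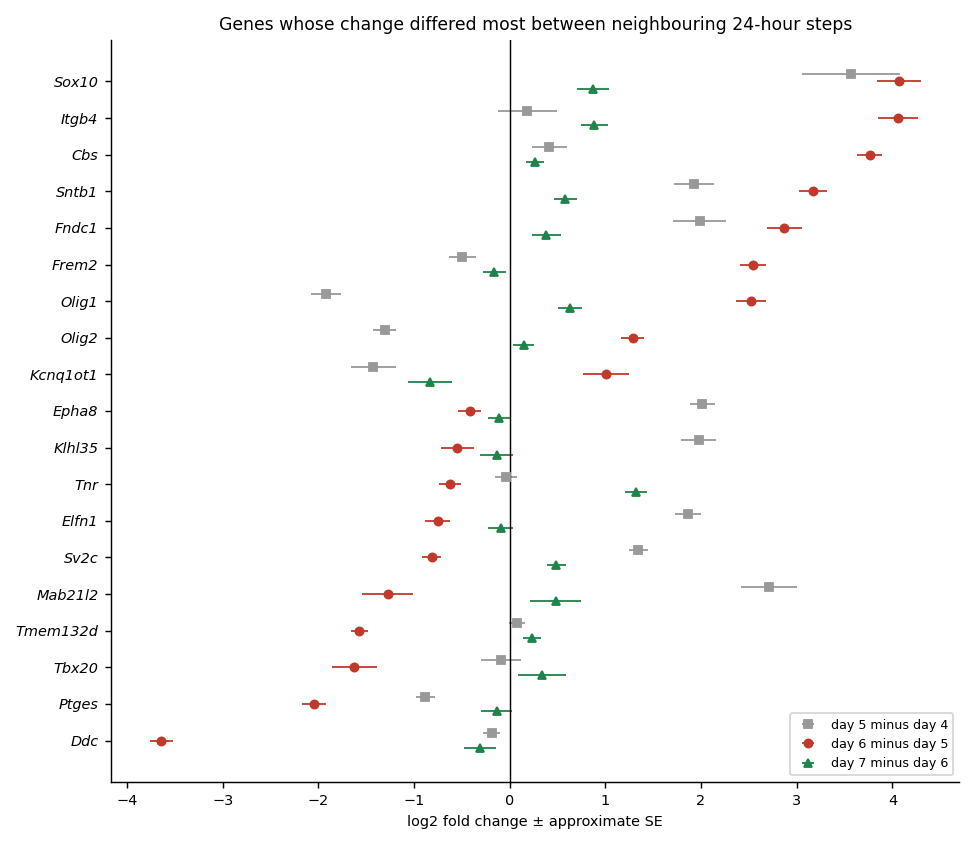
Log2 fold change ± approximate SE (x axis) of genes whose change differed most between steps (y axis) over 3 neighbouring 24-hour steps, from day 4 to 5 (grey squares), day 5 to 6 (red circles) and day 6 to 7 (green triangles). Cbs, Itgb4 and Frem2 move mainly in the step into day 6, as does Ddc in the other direction, and Olig1 and Olig2 change direction between the first step and the second.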

How the data were processed

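Polyadenylated RNA was sequenced from HM1-derived neural cultures, with 3 replicates at each of 12 time points, after extraction with a Qiagen RNeasy Plus Micro kit and library preparation with a KAPA mRNA kit, per the labels' protocols. The submitters' processing notes name bcl2fastq 2.20.0, RSEM and the build GRCm38. No aligner, gene annotation or strand setting is given in the sources used here. Expected counts estimated by RSEM were deposited for each gene (6.87% of the values were not whole). The authors also deposited TPM, which is scaled for length and total.

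Expected counts were rounded. Genes kept by filterByExpr (17990 of 32047 with at least 1 count) in all 36 libraries entered 1 model with 12 time points, TMM factors of 0.924 to 1.06 and residual degrees of freedom of 24, in edgeR 4.0.16 (glmQLFit and glmQLFTest, R 4.3.3). The same procedure was also run on counts simulated from the fitted values, and its outcome is not given here. A gene was called at a Benjamini-Hochberg adjusted p under 0.05. The ± after a log2 fold change is an approximate standard error (its size over the root of the F statistic), and ± after a level is the SD. Alternatives were DESeq2 1.42.0, median-of-ratios scaling, no filter, the 6 libraries alone, the replicate number as a block, limma 3.58.1 on log2(TPM + 1) and log2(TPM + 0.1), a 2-fold threshold, and each of the 6 libraries left out. Intervals and floors (3 counts per library) cover counting error only. Depth was 28787829 to 34380425 counts per library over the 6, which limits precision for genes under about 1 CPM.

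Named genes were a panel of 33, the 15 largest rises and 15 largest falls, up to 4 called members per list with the smallest p, the genes with the largest differences between steps, and genes named beside their list after their values were seen; some genes that these rules pick are not reported here. The groups, lists and members were chosen with earlier results of these data known. Symbols matched 51633 of 51912 gene IDs, and coordinates and exon overlaps are from GENCODE M21 on GRCm38. Values are uncertain for genes sharing exon sequence on the same strand (Aldh1l1, Foxp1 and Onecut1) or on the other strand (Aldh1l1, Ccnd1, Ccnd2, Cdkn1c, Chd5, Cnp, Cp, Dnah9, Gata6, Gpr17, Hes5, Hmga2, Hmgcs1, Hopx, Id4, Igf2bp1, Itgb4, Kcnq1ot1, Lin28a, Mab21l2, Nefl, Neurog3, Nfia, Nfic, Nfix, Nkx2-2, Nkx6-2, Nr1d1, Olig1, Pdgfra, Pfkp, Pou5f1, Prom1, Shh, Shisa3, Slc1a2, Sox8, Stat3, Tfap2a, Tgm2, Tnc, Tnr, Vcam1 and Zbtb20).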

Additional observations from a re-analysis of the deposited data

Results flagged for a closer look

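Of the panel genes, 5 changed in opposite directions in neighbouring 24-hour steps, each difference passing edgeR's quasi-likelihood test of the difference itself. Olig1 had a log2 change into day 6 that exceeded its change into day 5 by 4.44, with adjusted p = 1.56e-12. For Olig2 that difference was 2.59 (adjusted p = 1.41e-10), and for Bcan it was 2.61 (adjusted p = 1.19e-07), all 3 genes having fallen into day 5 and risen into day 6. Tubb3 had risen into day 5 and fell into day 6, a difference of −0.67 (adjusted p = 2.84e-05). Its change into day 6 also differed from its rise into day 7, by −0.80 (adjusted p = 2.53e-06). Shh rose into day 6 and fell into day 7, with a difference of 0.65 (adjusted p = 0.000963). Steps share the libraries of the day between them, so a deviation of those libraries moves both steps in opposite directions, and its part was not tested.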

How the results depend on the processing

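The count of changed genes, 9078, ranged from 7978 to 9063 over 7 other settings, from 8116 to 8911 with 1 of the 6 libraries left out, and fell to 1297 with a 2-fold threshold (930 higher and 367 lower). On log2(TPM + 1) 2977 genes were lower and 5447 higher, and on log2(TPM + 0.1) 2950 were lower. With a 2-fold threshold 8 gliogenic factors, 13 astroglial and 8 synaptic genes were higher, and 5 neurogenic, 11 replication, 1 mitosis, 6 Lin28 axis and 0 sterol genes were lower. Same-numbered libraries of the days correlated at 0.0642, 0.202 and −0.000452, so the numbers were not taken as pairs, and with the replicate block 9036 genes were called and no named gene lost or changed its call. Of 231 named genes, 218 were called and 11 of them lost the call under at least 1 setting, namely Dppa5a, Epha8, Foxa2, Gata6, H2-K1, Klhl35, Neurod6, Neurog3, Pax6, Sim1 and Tnr. Calls were gained by 2 genes, Sox2 without day 5 replicate 2 or day 6 replicate 3 (log2 fold changes −0.142 and −0.16) and Mbp on TPM (0.216 and 0.226). Signs changed in 11 genes, none of which was called as reported. On log2(TPM + 1) and log2(TPM + 0.1) the log2 fold change became 0.097 and 0.50 for Gfap, 0.001 and 0.001 for Sox2, 0.064 and 0.065 for Hes1, 0.096 and 0.096 for Nkx2-2, and 0.062 and 0.064 for Gja1. With 1 library left out it ranged from −0.06 to 0.121 for Sox9, −0.846 to 0.139 for Gfap, −0.111 to 0.02 for Nkx2-2, −0.024 to 0.093 for Mbp, −0.313 to 0.207 for Cspg4, −0.125 to 0.042 for Gja1, −0.09 to 0.076 for Slc1a2, −0.333 to 0.055 for Neurog2 and −0.062 to 0.079 for Pecam1. The cause was not tested. The step differences ranged from 3423 to 5422 genes against the step before and from 3185 to 4501 against the step after. Depth limits Gfap, S100b, Neurod6 and Zfp488, which rest on few counts.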

Other observations

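Low transcripts of pluripotency factors were higher at day 6 than at day 5. Of 16 tested pluripotency genes 7 were higher and 3 lower at day 6, and the list summed to 31.4 to 40.8 TPM at day 6 and 29.1 to 34.1 TPM at day 5. Pou5f1 (Oct4) had 2.56, 2.15 and 1.94 CPM at day 6, against 1.07, 0.907 and 1.11 CPM at day 5 (log2 fold change 1.09 ± 0.29, adjusted p = 0.00194), and Nanog had 2.33, 2.38 and 1.74 CPM at day 6, against 0.825, 0.97 and 1.3 CPM at day 5 (log2 fold change 1.05 ± 0.20, adjusted p = 3.78e-05). Zfp42 (Rex1) had 2.26, 1.72 and 1.74 CPM at day 6, against 0.855, 0.907 and 1.15 CPM at day 5 (log2 fold change 0.97 ± 0.24, adjusted p = 0.000919). The day averages of Pou5f1 over days 4, 5, 6 and 7 were 1.95 ± 0.572, 1.03 ± 0.109, 2.21 ± 0.316 and 0.688 ± 0.526 CPM, and those of Nanog were 2.41 ± 0.517, 1.03 ± 0.246, 2.15 ± 0.356 and 0.619 ± 0.0861 CPM (SD, n = 3 each). Into day 7 the log2 fold changes were −1.65 and −1.78. Lin28a, which the same list holds, fell at day 6.

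Promoter motifs were also counted over the genes changed by at least 2-fold, with no test. Of 620 genes higher with a window, 15.5% held the NFI motif, against 11.7% of 222 genes lower and 11.5% of 12413 tested genes. The Sox motif was held by 12.6% of the genes higher, 14.9% of the genes lower and 13.5% of the tested genes, reading the first listed window of each gene.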
